A study of Mus musculus with 3 samples.

Results

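The wildtype array is a single-colour Agilent mouse expression array of RNA from wildtype cells labelled as mouse embryonic stem cells (mESCs). Genes were taken as members when at least 1 of their probes was well above background, as the scanner software flags it, on that array. Of the 20654 named genes with a probe, 14403 met this rule, which is 69.7%, and 6251 did not. The series holds 3 arrays, 1 each for wildtype, LIFR KO and gp130 KO cells, all cultured under standard conditions according to the labels, and total RNA was extracted with Trizol and labelled with Cy3. LIFR is the receptor for leukaemia inhibitory factor (LIF) and gp130, encoded by Il6st, is the subunit it signals with. The strain of the line, its passage, the culture medium and whether feeder cells were used were not stated by the labels. With 1 wildtype culture there was no replicate and no test. The errors below are the scanner software's own error for a probe, written as ± scanner error, and they cover neither the culture nor the labelling.

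Mouse embryonic stem cells come from the inner cell mass of the early embryo and can form every tissue of the body. LIF binds LIFR and gp130, Janus kinases then activate STAT3, and STAT3 together with the transcription factors Pou5f1 (Oct4), Sox2 and Nanog keeps the cells undifferentiated. Cells that leave this state switch off these factors and their targets, such as Zfp42 (Rex1), and switch on the factors and surface proteins of a lineage.

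The processed signal of a gene, a brightness on a linear scale with no unit, was taken from its brightest probe well above background. Its percentile is its place among the 14403 genes, with 100 for the brightest. How bright a probe is depends on its sequence as well as on the RNA, so the order of genes is an order of probes and not of RNA amounts. Signals of the 14403 genes ran from 8.71 to 255021 with a median of 494, and 2813 of them, or 19.5%, were under 50. With a signal of at least 50 also required, 11590 genes, or 56.1% of the named genes, remained. Probes just above the limit started at 10.5 for those with a single spot, and the highest probe not well above background had a signal of 14.9. None of the 153 spots of negative control probes was well above background, and their highest signal was 3.01. Probes printed in several spots, all well above background, varied with a median SD of 0.053 on the log2 scale. In the plot of all signals the 2 groups of genes meet in this narrow zone. A gene called absent in the text is one not well above background, which does not show that its RNA is missing.

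**Figure D1:**
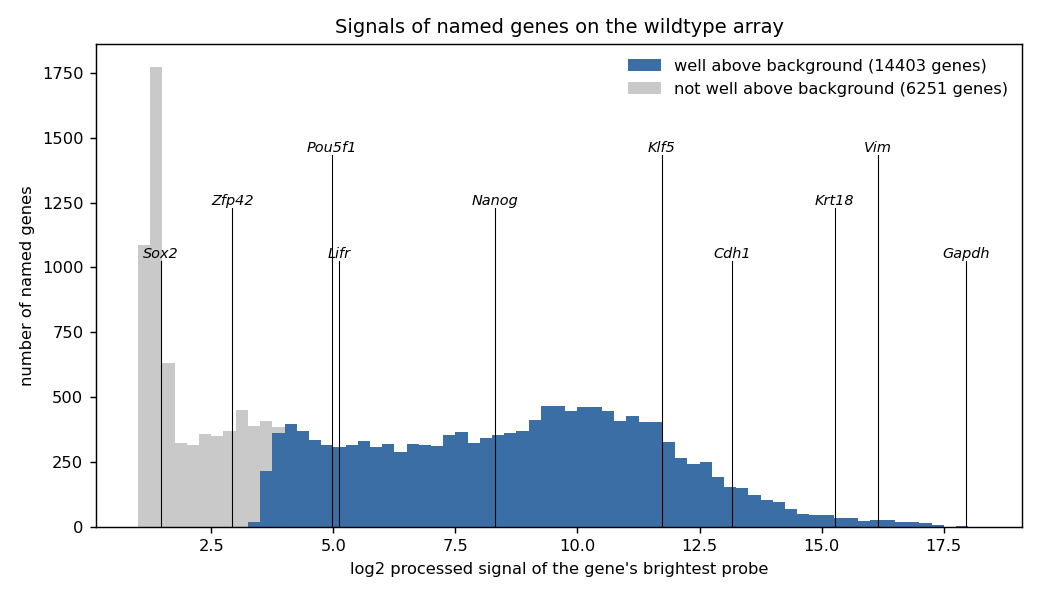
Number of named genes (vertical axis) by log2 processed signal of the gene's brightest probe (horizontal axis) on the wildtype array, split by whether the gene was well above background, with 10 genes marked. Sox2 and Zfp42 lie among the genes not well above background, Pou5f1 and Lifr lie near the lower end of those above it, and Gapdh is the brightest gene.

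The genes targeted in the other 2 lines were read first. The probe for Lifr had a signal of 34.9 ± 4.13 (scanner error) on the wildtype array, 29.97 on the LIFR KO array and 34.7 on the gp130 KO array. The signals of Lifr's other 2 probes stayed between 2.05 and 4.27 on the 3 arrays, too low for the flag. Il6st had a signal of 329 ± 33.0 on the wildtype array, 369 on the LIFR KO array and 299 on the gp130 KO array. The 3 values of each gene were close to each other, so these probes did not tell the arrays apart, and the sources used here do not place the probes relative to the deleted parts.

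The label of the cells was checked against the factors that define embryonic stem cells, and the data went against it in part. Of 24 pluripotency transcription factors, 16 (66.7%) were well above background and 10 (41.7%) had a signal of at least 50. The first share is near the 69.7% of all named genes and the second is below their 56.1%, so the check rests on which factors were absent and not on the count. The list had a median percentile of 32.4 among those above background and none in the brightest 10% of genes above background, which hold 6.98% of the named genes. Sox2, the partner of Pou5f1 on DNA, had a signal of 2.78, within the range of the negative controls, and was not well above background. Pou5f1 was well above background at only 31.2 ± 3.76. Zfp42, a marker of the naive state, had a signal of 7.63 and was not well above background. Nr0b1 (2.60), Prdm14 (2.18), Gbx2 (4.78), Sall1 (2.38) and Mycn (2.58) were not well above background either. Each of these factors was read by 1 probe.

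The brightest member of the list was Klf5, a zinc finger factor of both stem cells and epithelia, with a signal of 3387 ± 339. Zfp296 was at 1416, Rif1, which acts in telomere and replication control, at 1119, Klf2 at 743 and Klf4 at 673. Nanog, a homeobox factor of the naive state, had a signal of 316 ± 31.7, at a level between these and the background. Sall4 (312) was well above background with 1 of its 3 probes. Utf1 was at 220, Tfcp2l1 at 83.6 and Esrrb at 50.3. Those below 50 were Nr5a2 (45.3), Zscan10 (38.2), Zscan4c (19.2), Tbx3 (18.9) and Otx2 (13.8).

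Other genes enriched in embryonic stem cells were well above background in 15 of 24 (62.5%) and at a signal of at least 50 in 13 (54.2%), shares near those of all named genes. Mybl2, a cell cycle factor, had a signal of 9479, and Spp1, which encodes the secreted protein osteopontin, had 3492. Lin28a, an inhibitor of let-7 processing, was at 727, the de novo methyltransferase Dnmt3b at 319, Tet2 at 262 and Tet1 at 154. Tdgf1 (508), the co-receptor of Nodal, was seen by 1 of its 3 probes. Fgf4 (2.76), Dppa3 (2.23), Dppa2, Dppa4 (11.8), Lin28b (4.21), Fbxo15, Eras, Tcl1 and Slc2a3 were not well above background. The array therefore had little or no signal for several factors that define the labelled cell type, and it is called here by its genotype only. Fewer cells of a type and less RNA per cell cannot be told apart in such bulk RNA. All 14 genes of a list of telomerase and chromatin regulators were well above background, among them Smarca4 (18307), Chd4 (11176), Uhrf1 (10770), Ezh2 (2042) and Tert (270).

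**Figure D2:**
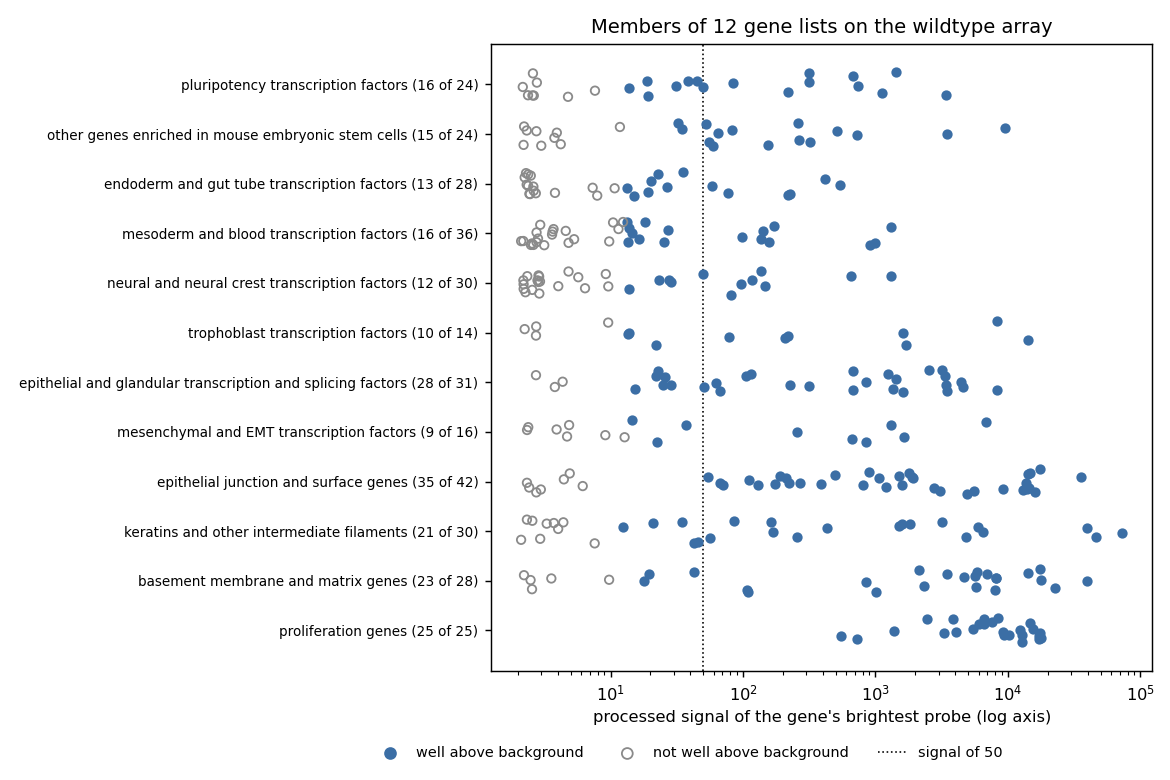
Processed signal (log axis) of each member of 12 gene lists on the wildtype array; filled points were well above background, open points were not, and the dotted line marks a signal of 50. The 25 proliferation genes all lie to the right of the line, while the pluripotency factors spread across it, from 2.18 for Prdm14 to 3387 for Klf5.

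Ribosomal protein genes were the most numerous group among the brightest genes. Gapdh, the glycolytic enzyme often used as a reference, led with 255021 ± 25502. The 30 brightest genes, with 4 clone or predicted gene names passed over, included the ribosomal protein genes Rplp2 (172018), Rpl41 (169145), Rpl10 (168352), Rps27 (141514), Rpl36 (141416), Rplp0 (137220), Rps12 (137003), Rpl23a (132173) and Rpl7 (123692). The glycolytic enzymes Ldha (145541), Eno1 (139115) and Eno1b (140054), the cytoskeletal actin Actb (163089), the protein-folding isomerase Ppia (146031) and the chaperone Hspa8 (130294) were also among them. Tpt1 (169118), the translationally controlled tumour protein, and Lgals1 (157197), a secreted lectin that binds galactosides, belonged to this group as well. The 100 brightest genes held 25.1% of the summed gene signal, and 42 of these 100 were ribosomal protein genes.

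Some of the brightest genes rested on 1 probe that the gene's other probes did not match. Elk1, an ETS factor activated by MAP kinases, had a signal of 150600 from 1 probe and 19.7 from the other. Ttc38 (129677) and Kctd14 (128795) each had a probe with a low signal, for Kctd14 at 3.19 and not well above background. Synrg (138304 against 278), Med16 (130447 against 468), Ndor1 (145816 against 343) and Glrx2 (180614 against 103) also had a probe below the median of the array. Of the 23 of these 30 genes with over 1 probe, 14 kept their lowest probe in the brightest 10% and 7 had it below the median. Exosc2 (203198), a subunit of the RNA exosome, had 1 probe only. The rest of the 30 were Milr1 (140360), whose lowest probe gave 1300, Medag (135215) and Coa8 (128709). Among all genes with over 1 probe, 21.8% had some probes above background and others not, and the cause was not tested.

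As families, the genes of basic cell functions were above background in larger shares than the 69.7% of all named genes. Of 87 cytosolic ribosomal protein genes, 83 (95.4%) were well above background. The brightest 10%, which hold 6.98% of the named genes, held 81 of the 87. For oxidative phosphorylation the counts were 86 of 89 with 61 in the brightest 10%, led by Ndufb9 (49139), and for the proteasome 46 of 48 with 24, led by Psma5 (26370). For translation factors they were 61 of 64 with 30, led by Eef1a1 (123294). Core histone genes were above background in 34 of 38 (89.5%), and the 7 brightest were H2A genes, from H2ac12 (74685) down to H2ac19 (40027). These are near-identical copies whose probes can share RNA, so single histone genes are uncertain. Of 28 tubulin, actin and thymosin genes, 23 (82.1%) were well above background.

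Genes of the cell cycle were bright as a group. All 25 proliferation genes were well above background, against 69.7% of named genes, and 17 of them were in the brightest 10%, against 6.98%. Their median percentile was 92.9. Birc5 (survivin) had a signal of 17719, the replicative helicase subunit Mcm6 17354, the polymerase clamp Pcna 17229, the ribonucleotide reductase subunit Rrm2 17224, and Mki67, the Ki-67 antigen, 12413 ± 1241. The lowest were Aurkb (720) and Tyms (550). Cdk1 (9307), the mitotic kinase, had its lowest of 3 probes at 28.8.

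Promoters of these genes were read from RefSeq (GRCm38.p6) in windows of 250 bases before to 50 bases after the start, which held 21 of the 25 genes. The CCAAT motif, searched as CCAAT on both strands, was in 17 of the 21 windows (81.0%), compared with 37.9% of all 27025 promoters in the table. In 13 of the 21 (61.9%) it occurred at least 2 times, compared with 12.2% of all. None of the 21 windows held TATAAA, which was in 14.2% of all, and GGGCGG was in 81.0% against 35.9%. The other motifs searched gave smaller shares. CCGGAAG was in 19.0% of the 21 against 9.12% of all, CACGTG in 4.76% against 7.24%, CTCTTTC in 4.76% against 8.01% and AACCNGTT in 4.76% against 2.01%. TGACTCA and GGAATTTCC were in none of the 21, against 5.17% and 0.322% of all. Among 1157 promoters of the brightest 10% of protein-coding genes, where most of these genes lie, CCAAT was in 39.6%, TATAAA in 10.5%, GGGCGG in 66.6% and CCGGAAG in 22.4%. Top2a, the DNA topoisomerase of dividing cells, had 6 CCAAT motifs, and Birc5, Tyms, Cdc6 and Cdt1 had none. These are counts of letters, since the array does not measure binding. To show their spacing, 120 bases before the start are printed for 6 of these genes, 5′ to 3′ on the gene's strand, with CCAAT or its reverse complement ATTGG in capitals. They are the cyclins Ccnb1 (signal 6041, chr13:100786487-100786606, minus strand) and Ccnb2 (5403, chr9:70421555-70421674, minus), Cdk1 (9307, chr10:69352913-69353032, minus), the mitotic kinase Aurka (4033, chr2:172370571-172370690, minus), Mcm5 of the helicase (7633, chr8:75109389-75109508, plus) and the reductase subunit Rrm1 (6634, chr7:102441575-102441694, plus).
Ccnb1: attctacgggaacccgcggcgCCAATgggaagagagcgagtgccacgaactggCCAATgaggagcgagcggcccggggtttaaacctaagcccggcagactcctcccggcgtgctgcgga
Ccnb2: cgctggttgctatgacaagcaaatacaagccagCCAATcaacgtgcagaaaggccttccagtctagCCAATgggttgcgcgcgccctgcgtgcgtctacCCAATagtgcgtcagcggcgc
Cdk1: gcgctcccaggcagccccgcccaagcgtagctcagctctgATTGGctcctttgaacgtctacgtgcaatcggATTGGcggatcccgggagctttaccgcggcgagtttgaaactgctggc
Aurka: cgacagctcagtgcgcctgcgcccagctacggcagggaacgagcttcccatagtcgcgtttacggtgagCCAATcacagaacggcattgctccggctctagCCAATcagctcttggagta
Mcm5: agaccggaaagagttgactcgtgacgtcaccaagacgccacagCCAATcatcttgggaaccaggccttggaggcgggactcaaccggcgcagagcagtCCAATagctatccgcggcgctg
Rrm1: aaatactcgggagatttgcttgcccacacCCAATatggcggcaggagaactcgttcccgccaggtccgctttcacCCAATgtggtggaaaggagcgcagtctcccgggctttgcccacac
In Ccnb2 the first letters of the 3 motifs lay 87, 54 and 21 bases before the start. In Ccnb1 they lay 99 and 67 bases before it and in Aurka 51 and 19. Cdk1 had both on the opposite strand, at 80 and 48.

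Growth control genes included 23 of 27 (85.2%, beside 69.7% of all named genes) well above background. Ccnd1 (10717), the cyclin of the G1 phase, and the growth factor target Myc (10313) were the brightest. Smad4 (5195) and Cdkn1b (4281), brakes on growth, had signals far above the array's median. Cdkn2a, the locus of p16 and p19Arf, had a highest probe signal of 2.74, and its neighbour Cdkn2b had 2.63, with 2 probes each. Neither was well above background, nor were Cdkn1c (3.69) and Mycn. Of 9 genes of the X and Y chromosomes that mark sex, 8 were not well above background. Xist, the RNA of the inactive X chromosome, had 2.98, and the Y-linked Ddx3y 2.75 and Kdm5d 2.33. Usp9y, at 14.3, was the 1 above background.

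Members of the transcription factor families listed here were pooled, and 221 of 336 (65.8%) were well above background, a share near the 69.7% of all named genes. After Elk1, the brightest of these 336 were Jund (39903), a component of AP-1, Atf4 (22254), the factor of the integrated stress response, and Cebpb (21391), a factor of inflammation and adipocyte differentiation. Stat5b (17181), Etv4 (11305), Sox5 (10717), Foxp4 (10098), Rela (9120), the p65 subunit of NF-kB, and Gata3 (8287) completed the 10 brightest of these families. Gcm1 (14262), Myc (10313) and Mybl2 (9479) belong to none of them and are given with their lists. Atf4 had a second probe at 376, Sox5 a second probe at 17.6 and Foxp4 a probe at 44.2, while Jund, Cebpb, Rela and Gata3 were each read by 1 probe.

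Factors of epithelia were mostly detected. Of 31 epithelial and glandular transcription and splicing factors, 28 (90.3%, beside 69.7% of all named genes) were well above background and 22 (71.0%, beside 56.1%) had a signal of at least 50, with a median percentile of 55.5. Gata3, a factor of mammary, urothelial, trophoblast and T cell lineages, had 8287 ± 829. Next came the Kruppel-like factor Klf6 (4559), Ovol2 (4444), a repressor of mesenchymal genes, Klf3 (3437) and Klf5 (3387), of the same family as Klf6, Esrp1 (3331), an epithelial splicing regulator, and Sox9 (3185). Grhl2 (1350) and Trp63 (1243), regulators of surface epithelia, were lower. Esrp1 had a second probe at 72.7, Grhl2 had a second probe at 23.8, and Trp63 had a second probe that was not well above background. Elf5 (2.74), Vgll1 (4.35) and Zfp750 (3.80) were not well above background.

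Factors of the epithelial to mesenchymal transition were split. Of 16, 9 (56.25%, beside 69.7% of all named genes) were well above background and 6 (37.5%, beside 56.1%) had a signal of at least 50. The median percentile of the 9 was 55.1, close to the 55.5 of the epithelial and glandular factors above background. Tcf4 (6848, with a second probe at 19.0), Twist1 (1649), Foxc2 (1320), Zeb2 (842) and Snai1 (661) had the highest signals. Zeb1 (9.14), Snai2 (12.8), Snai3, Twist2, Prrx2, Tcf21 and Meox2 were not well above background.

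Factors of the germ layers mostly had low signals. For endoderm and gut tube, 13 of 28 (46.4%, beside 69.7% of all named genes) were well above background and 6 reached 50, led by Gata4 (538), Gata5 (415), Foxa1 (226) and Eomes (219). Foxa2 (2.63), Sox7 and Hnf4a were absent, and Sox17 was at 15.1. For mesoderm and blood, 16 of 36 (44.4%) were above background and 8 reached 50, led by Foxc2, Foxc1 (986) and Runx1 (915), while the mesoderm factor T (brachyury, 2.51) was not. For neural tissue, 12 of 30 (40.0%) were above background and 7 reached 50, led by Pou4f1 (1311) and Zic1 (649, 1 of 2 probes), while Sox3, Pax6 and Neurog2 were not. Of 14 trophoblast factors, 10 (71.4%) were above background. Gcm1 (14262, 3 of 4 probes), Gata3, Ets2 (1713) and Tfap2a (1608) were highest, and Cdx2, Elf5, Esx1 and Ascl2 were not above background.

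Hox genes, which mark position along the body axis, were detected mainly in the Hoxa cluster. Of 39 on the array, 17 (43.6%, beside 69.7% of all named genes) were well above background and 10 (25.6%, beside 56.1%) had a signal of at least 50. The Hoxa cluster had 10 of 11 above background, the Hoxb cluster 3 of 10, the Hoxc cluster 3 of 9 and the Hoxd cluster 1 of 9. Hoxa9 was the brightest at 3236, with a second probe at 65.0, followed by Hoxa3 (1294) and Hoxa7 (735). Lower members of the cluster included Hoxa10 (109), Hoxa6 (52.7), Hoxa4 (39.3) and Hoxa13 (13.96, 1 of 2 probes). Hoxa11 (3.31) was the Hoxa member not above background. Outside this cluster, Hoxc12 (102), Hoxd4 (68.6), Hoxb3 (43.1), Hoxb9 (30.3), Hoxc6 (21.9), Hoxb6 (16.0) and Hoxc4 (13.4) were above background. The other 21 Hox genes had signals from 2.27 (Hoxc9) to 8.31 (Hoxc5).

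The other transcription factor families differed in how many members were seen, beside 69.7% of all named genes above background. All 5 NF-kB genes were well above background, with Rela, Nfkb2 (4135), Relb (1423) and Nfkb1 (1378) far above Rel (20.8). AP-1, ATF and C/EBP genes were above background in 29 of 32, Klf genes in 14 of 17, Gata genes in 5 of 6, ETS factors in 19 of 26, nuclear receptors in 36 of 49 and Irf and Stat genes in 12 of 16. Counts were 29 of 44 for Fox genes, 11 of 19 for Sox genes, 9 of 17 for T-box genes, 7 of 14 for Pou genes, 12 of 25 for LIM and Nkx genes and 4 of 9 for Pax genes. Irx2 (3232) and Irx1 (2230) were bright among the Irx homeobox genes. Pax genes peaked at 138 (Pax3), from 1 of 2 probes.

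At the cell surface, epithelial adhesion genes were bright. Of 42 epithelial junction and surface genes, 35 (83.3%, beside 69.7% of all named genes) were well above background, all 35 at a signal of 50 or more, and 10 were in the brightest 10%. Cdh1, E-cadherin, had 9179 ± 918, and the catenins that bind it, Ctnnb1 and Ctnnd1, had 17570 and 14365. Cd9 (35629), a tetraspanin, led the list, followed by the tricellular junction protein Lsr (15958), plakophilin Pkp3 (14231), Perp (13902), Cd24a (13765) and Cldn3 (12889). Epcam was at 1775. Cldn1 (2.75), Cldn2 (4.92), Cldn6 (6.17), Cldn8 (2.98), Gjb2 (4.45), Ildr1 (2.43) and Nectin4 (2.34) were not well above background. E-cadherin is also made by embryonic stem cells, so this gene alone does not separate the cell types.

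Claudins, the strand proteins of tight junctions, were above background in 11 of 23 (47.8%), a share below the 69.7% of all named genes. Cldn3, Cldn12 (3327) and Cldn7 (1902) were highest. Of 10 epithelial surface proteases and inhibitors, 7 (70%) were above background, a share near the 69.7% of all named genes. They were led by Tmprss11e (11932), the inhibitor Spint2 (8114), its target matriptase, St14 (3015), and Spint1 (2095).

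Keratins are the intermediate filaments of epithelia, and vimentin that of mesenchymal and many cultured cells. Vim had a signal of 73043 ± 7304 and Lmna, a nuclear lamin, 46098. The simple-epithelium pair Krt18 and Krt8 had 39533 ± 3953 and 6514 ± 651. Krt16 was at 4844, Krt7 at 3176, Krt19 at 1574, Krt14 at 1493, Krt13 at 429, Krt10 at 254, Krt80 at 169, Krt86 at 86.2 and Krt17 at 56.1. Below 50 were Krt5 (45.6, 1 of 2 probes), Krt6b (34.5) and Krt15 (21.0), and Krt1, Krt4, Krt6a, Krt12, Krt20 and Krt23 were not well above background. Both Vim and the simple keratins therefore lay in the upper part of the array. Nes (5976) was the highest of the neural filament genes, while Nefl, Nefm and the muscle filament Des were absent.

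Of 17 classical cadherins and mesenchymal surface genes, 11 (64.7%) were above background, a share near the 69.7% of all named genes. Mcam had 14059 with a second probe at 32.2, Nt5e 4596 and Cd44 4156. Cdh2, N-cadherin, had 43.2, Thy1 20.4 and Ncam1 14.3, and Cdh11, Cdh5 (7.04) and Pdgfrb (2.24) were not well above background. Of 24 integrin subunits on the array, 19 (79.2%) were above background. The laminin-binding subunits Itgb1 (7011), Itga6 (5452), Itgb4 (3834) and Itga3 (3661) were highest.

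Il6st (gp130), the receptors that pair with it and their relatives Csf3r and Lepr, which signal without it, were read as 1 list. Of its 9 genes, 8 (88.9%, beside 69.7% of all named genes) were well above background. Csf3r, the receptor of granulocyte colony-stimulating factor, had 21951 ± 2195 from 1 probe, far above the others. Il6ra had 1331, Il6st 329, Osmr 196, Il11ra1 189, Cntfr 167, Lepr 50.1 and Lifr 34.9, and Il27ra was not well above background. Lifr was thus the lowest of the 8, with 2 of its 3 probes not above background. Lepr also rested on 1 probe, since its others, at 2.32, 2.62 and 2.83, were not well above background. In the pathway downstream of these receptors, 22 of 25 genes (88%) of the LIF and STAT3 list were above background. Ptpn11 (6458), the phosphatase SHP2, Jak1 (2593), Cebpd (2391) and the feedback inhibitor Socs3 (2256) had high signals. Stat3 was at 1618 with a second probe at 64.0, and Stat4 (2.21) and Pias3 (4.68) were not well above background.

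Of 38 growth factor receptor tyrosine kinases, 28 (73.7%, beside 69.7% of all named genes) were above background. The ephrin receptors Ephb3 (20588) and Epha2 (11572) and the TAM receptor Axl (9907) led, and Erbb4, Kit, Ret, Tek and Pdgfrb were among the 10 absent. Receptors of the TGF-beta, BMP, Wnt and Notch pathways were above background in 24 of 32 (75%). Tgfbr2 (5990), Ryk (5315) and Acvr2b (5000) were highest, and the stem cell marker Lgr5 (2.46) was absent. Of 19 inflammatory cytokine receptors 17 (89.5%) were above background, led by Il17rc (3608), Tnfrsf1a (2810) and Ifngr1 (2555). All 13 genes of MHC class I presentation were detected, with B2m at 31337 and H2-K1 at 16097, and Tap1 lowest at 39.2. Class II genes were detected in 4 of 8, none above Cd74 (239).

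Secreted signals included bright chemokines. Of 28 chemokines on the array, 17 (60.7%) were above background and 11 (39.3%) had a signal of at least 50. Both shares are below the 69.7% and 56.1% of all named genes. Cxcl5, a neutrophil chemoattractant, had 43588 ± 4359, Ccl4 18045 ± 1804, Cxcl1 9220 ± 922 and Ccl2, which attracts monocytes, 5077 ± 508. Cxcl16 (3732), Cx3cl1 (3057), Cxcl3 (1478) and Ccl5 (1273) followed. Ccl3, a close relative of Ccl4, was at 14.5, and Cxcl2, a relative of Cxcl1, at 27.4. Cxcl12, a chemokine of stromal cells, and Ccl20 were not well above background.

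Cxcl1 and Cxcl3 are well-known NF-kB target genes, and a search of their promoters, with a motif chosen after the signals were seen, used the letters GGAATTTCC on both strands. This run is in 0.322% of all promoters in the table and in both of these, which were picked as known targets. The table held promoters for 71.4% of the chemokines, under the 80% required here, so a share over the whole list is void. It is printed in capitals, with TATAAA where present, in the 120 bases before the starts of Cxcl1 (chr5:90891125-90891244, plus strand) and Cxcl3 (chr5:90785981-90786100, plus strand).
Cxcl1: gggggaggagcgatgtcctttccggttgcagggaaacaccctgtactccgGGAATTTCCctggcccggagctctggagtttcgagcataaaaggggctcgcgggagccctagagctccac
Cxcl3: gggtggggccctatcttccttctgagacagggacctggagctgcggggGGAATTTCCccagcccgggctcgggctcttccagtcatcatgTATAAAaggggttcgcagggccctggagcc
The run starts 70 bases before the start of Cxcl1 and 72 before that of Cxcl3, and Cxcl3 has TATAAA at 30. No binding was measured.

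Of 36 cytokines and colony-stimulating factors, 27 (75%, beside 69.7% of all named genes) were above background and 18 (50%, beside 56.1%) reached 50. Mif, a widely made cytokine, had 72671 ± 7267 with all 3 probes above background, Csf3, granulocyte colony-stimulating factor, 9215 ± 921, and Csf1, the macrophage factor, 7023 ± 702. Csf3 and its receptor Csf3r were therefore both bright. Il1a was at 1357, Tslp at 959 and Lif itself at 688 ± 68.9. Il6 (36.4), Osm (35.4) and Tnf (17.3) were near the lower limit, and Ifng (2.61) and Ifnb1 (2.22) were not above background.

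**Figure D3:**
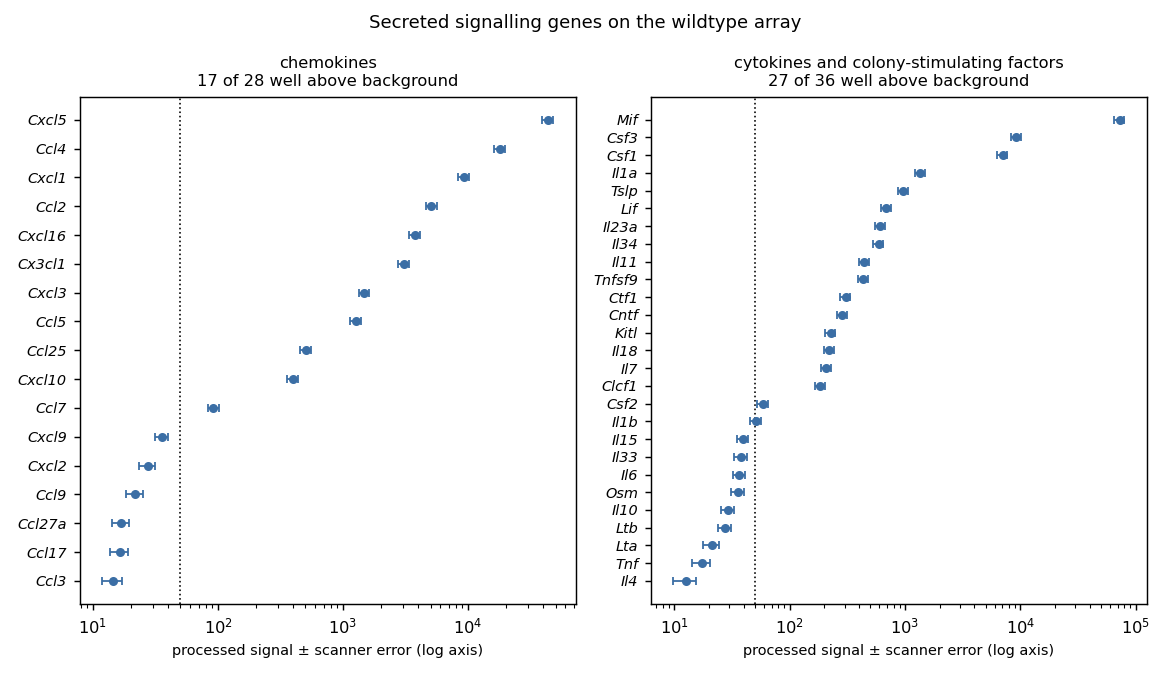
Processed signal ± scanner error (log axis) of the chemokines and of the cytokines and colony-stimulating factors above the background limit of the wildtype array; the dotted line marks a signal of 50. Cxcl5 at 43588 and Mif at 72671 head the panels, and Ccl3 and Il4 end them.

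Growth factors were above background in 42 of 60 (70%) and at 50 or more in 33 (55%). These shares are near the 69.7% and 56.1% of all named genes. Hdgf (41068, with a second probe at 441), Pdgfa (10323), the procollagen protease Bmp1 (8195), progranulin Grn (3981) and the EGF receptor ligands Hbegf (3682) and Areg (1906) were highest. Fgf2 (5.62), Igf2 (10.7), Hgf (2.67), Shh (3.37) and Bmp2 (2.43) were not well above background. Nodal was at 102, Lefty2 at 16.1 and Lefty1 (2.49) was absent.

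The extracellular matrix profile was that of basement membrane and fibronectin. Of 28 basement membrane and matrix genes, 23 (82.1%, beside 69.7% of all named genes) were above background. Their median percentile was 89.6, and 9 lay in the brightest 10%. Fn1, fibronectin, had 39354 and Fbln2 22450. The laminin chains Lamb1 (17840), Lama5 (17580) and Lamb3 (8124) were bright, the last a chain of the laminin that anchors epithelia, while Lama1, Lama2 and Lama4 were not above background. In contrast, the fibrillar collagen genes of fibroblasts were low, with Col1a1 at 70.4, Col1a2 at 22.8 and Col3a1 at 13.8. Matrix proteases and inhibitors were above background in 25 of 27, led by the lysosomal protease Ctsl (83206), Ctsb (22090), Timp2 (17919) and the stromelysin Mmp3 (7912), and Mmp2 and Mmp7 were not.

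Defence proteins of mucosal surfaces ranged widely. Of 27, 15 (55.6%, beside 69.7% of all named genes) were above background. Wfdc2, a secreted protease inhibitor of glandular epithelia, had 55310 ± 5531 with both probes above background. Pigr, the carrier of secreted antibodies, had 15603 with 1 of 2 probes and 6.04 with the other. Clu (8695), Slpi (8392), complement C3 (3700) and Lcn2 (2749) followed. Muc1 was at 19.6, and Ltf (3.10), Lyz1 (2.58), Lyz2 (5.81) and Agr2 (5.44) were not well above background.

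Families outside the lists were also read. S100 genes were above background in 15 of 18, led by S100a6 (90045), S100a10 (64285) and S100a4, and annexins in 11 of 12, led by Anxa1 (81776) and Anxa2 (70728). Solute carriers were above background in 255 of 371 (68.7%) and serpins in 37 of 59 (62.7%), beside 69.7% of all named genes. The collagen chaperone Serpinh1 (23551) and the glucose transporter Slc2a1 (13649) were among their brighter members.

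Genes of differentiated organs were mostly low or absent. The share of a list above background ran from 33.3% (pancreas) to 69.2% (kidney and urothelium), beside 69.7% of all named genes. At a signal of at least 50 the share ran from 25% (pancreas) to 41.7% (milk), beside 56.1%. Milk genes were above background in 6 of 12, with Btn1a1 (12299), Mfge8 (9086) and Lpo (3187) bright and all of the caseins listed, Csn1s1, Csn1s2a, Csn2 and Csn3, and Wap absent. Liver genes were above background in 5 of 14, with Alb (3.16) and Apoa1 (3.22) absent and Apoa2 at 21268 with 1 of 2 probes. Counts were 8 of 15 for intestine and stomach, with Atp4a highest at 407, 4 of 12 for pancreas, with Ins2 at 249, 4 of 9 for lung and airway, with Sftpd at 281, and 9 of 13 for kidney and urothelium, with Aqp2 at 154. For cornified skin they were 5 of 11, with Tgm3 (2068) from 1 of 2 probes, Lor at 252 and Ivl and Krt1 absent.

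Other cell types that a culture could hold were read by their markers, and their part in the signals above was not tested beyond these values. Of 18 fibroblast and feeder cell genes, 14 (77.8%, beside 69.7% of all named genes) were above background and 8 (44.4%, beside 56.1%) reached 50. S100a4 (47413) was bright, Tagln was at 571, Postn at 234 and Acta2 at 84.4, while Dcn (16.5) was near the limit and Lum, Fap, Mfap5 and Pdgfrb were absent. Leukocyte genes were above background in 12 of 19 (63.2%), with Itgam (937), Nkg7 (918, 1 of 2 probes) and Cd3e (724) highest. Ptprc, the pan-leukocyte CD45, was at 22.7, and Laptm5, Cd52 and Cd53 were absent. Of 15 endothelial genes, 6 (40%) were above background and 5 (33.3%) reached 50. Plvap was at 4245 (second probe at 59.4), the VEGF receptor Kdr at 1080 (1 of 2 probes), Egfl7 at 1072, Eng at 430 and Pecam1 at 262, while Cdh5, Tie1, Emcn and Vwf were absent.

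For the remaining types, the share above background ran from 38.9% (germ cell) to 76.5% (extraembryonic endoderm), beside 69.7% of all named genes. Counts were 6 of 9 (66.7%) for erythroid genes, where the transferrin receptor Tfrc (8642) was highest and Alas2 was absent. They were 9 of 17 for neuron and glia genes, led by Syp (2307), with Dcx and Rbfox3 absent. Muscle genes were above background in 8 of 15, with Tnnt2 (3714) and Tnni2 (1351) the only members at 50 or more, and adipocyte genes in 6 of 10, none above 57.8 (Fabp4). Germ cell genes were seen in 7 of 18, none above 91.4 (Prm2), with Ddx4 and Dazl absent. Extraembryonic endoderm genes were above background in 13 of 17, among them the matrix genes Lamb1 and Sparc (7958), with Gata6 at 19.2 and Sox7 and Ttr absent. Placental hormone and giant cell genes were seen in 6 of 10, led by Psg23 (1699).

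Families with known roles in other tissues were read as well. Olfactory receptors, the odour receptors of the nose, were above background in 230 of 1070 (21.5%) and at 50 or more in 73 (6.82%), against 69.7% and 56.1% of all named genes. Vomeronasal receptors were above background in 67 of 252 (26.6%), taste receptors in 11 of 38 (28.9%), beta-defensins in 10 of 43 (23.3%), clustered protocadherins in 14 of 35 (40.0%), keratin-associated proteins in 26 of 51 (51.0%) and cytochrome P450 genes in 50 of 90 (55.6%). The median signal of the olfactory receptors above background was 27.0. Olfr215 (77557), Olfr214 (16986) and Olfr15 (11419) were exceptions, each with 1 probe. The family plot orders these shares.

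**Figure D4:**
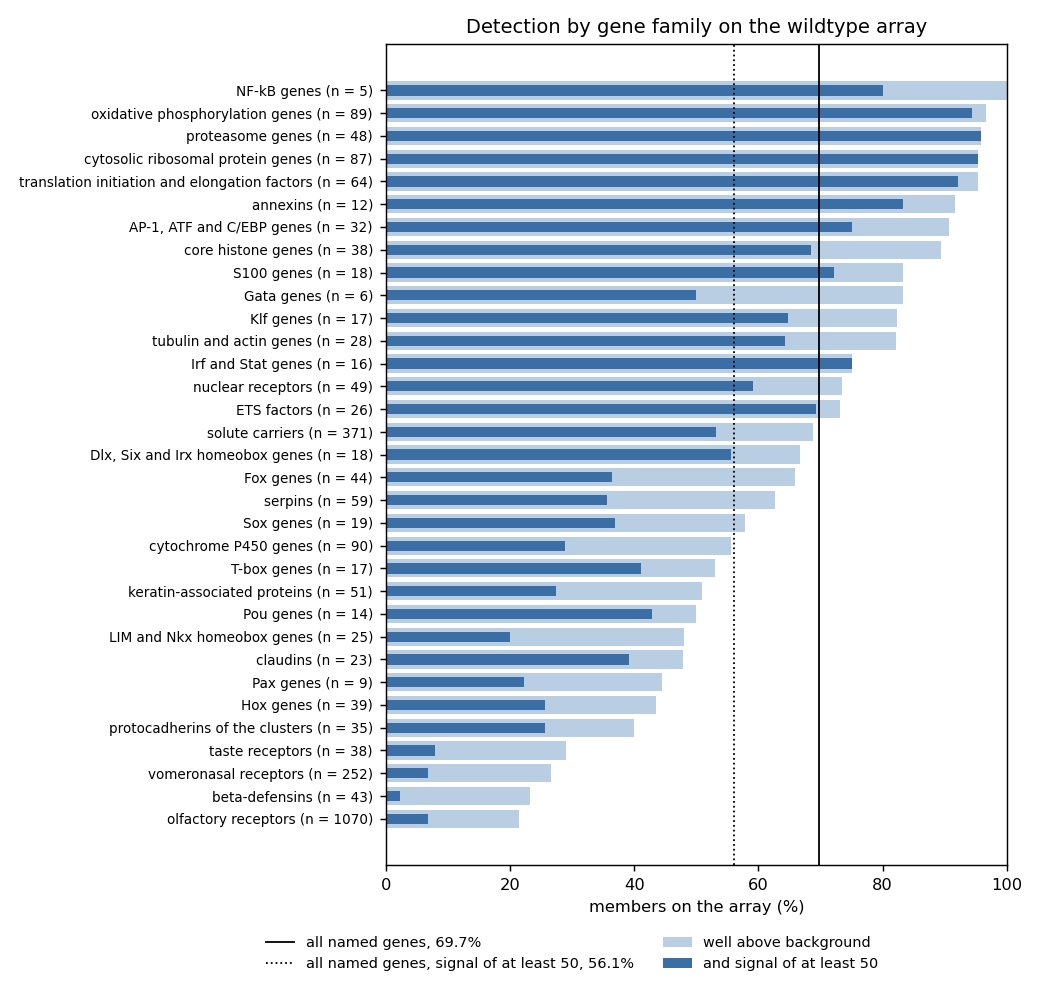
Share of the members on the array (horizontal axis, percent) of 33 gene families that were well above background (pale bars) and that also had a signal of at least 50 (dark bars) on the wildtype array; the lines mark the shares of all named genes, 69.7% and 56.1%. Proteasome and ribosomal protein genes lie near the top and olfactory receptors at the foot with 21.5%.

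CpG dinucleotides are depleted in most of the genome but kept in CpG island promoters, typical of genes used in many tissues. Protein-coding genes well above background had a median ratio of observed to expected CpG of 0.727 (11209 promoters of 13940 genes), and olfactory receptors had 0.106 (909 of 1070). TATAAA was in 9.06% of the promoters of genes above background and in 40.8% of those of olfactory receptors. When the genes above background were split into 10 equal steps of brightness, the ratio was 0.694 in step 4, 0.747 in step 5, 0.780 in step 6, 0.811 in steps 8 and 9 and 0.822 in the brightest step. The check was void for steps 1, 2, 3 and 7 and for the genes not above background, since the table held promoters for 78.1% to 79.4% of their members and at least 80% was required. Olfactory receptors are an extreme family and do not stand for all genes not above background.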

How the data were processed

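RNA of 3 cultures was hybridised to Agilent mouse arrays (design 026655), and the wildtype array is described here. The deposited scanner output holds intensity per spot, processed with Feature Extraction 11.0.1.1 per the file headers (the submitters' processing notes name 9.1). Its processed signal is background-subtracted by the authors' scanner software, and its flags, a unit of their own, mark spots well above background per the file headers. The authors' value table is on a log2 scale with a median of 5.38 (r = 0.996 with log2 processed signal). Outlier spots (97 of 43020) and control spots were left out. No spot was saturated. Spots of a probe were averaged. A probe counted as well above background when at least 50% of its spots were flagged. Of 39429 probes, 25373 were well above background. Probe names and accessions come from the scanner file, and gene names were assigned by matching the accessions to RefSeq and Ensembl identifiers. The number of arrays limits the precision.

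Genes named in the text are the 30 brightest without clone or predicted names, the 10 brightest members of the transcription factor families, up to 8 brightest and up to 8 undetected members of each list, and all pluripotency factors, gp130 receptors, Hox genes and keratins. Some genes that this rule names are not reported here. Further members are named as examples chosen after their values were seen. The members, the 47 lists and the 33 families were chosen with earlier results of these data known. Promoter windows are RefSeq's (GRCm38.p6), while the array design is mm9, so only sequences were joined, by symbol, for 16370 of the named genes. Each motif spelled out in the text was searched on both strands.

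Normexp background correction used limma 3.58.1 in R 4.3.3 with an offset of 50 on median spot and background signals rather than means. Other steps used Python 3.11.15 with pandas 2.3.3 and were tested on simulated data.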

Additional observations from a re-analysis of the deposited data

Results flagged for a closer look

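Probes whose accession matched no gene of the RefSeq gene reference used here are outside the values above. On the wildtype array 6690 of 12193 such probes were well above background, which is 54.9%, compared with 0 of the 153 negative control spots. They also made up 46 of the 100 brightest probes of the array. What they detect was not tested.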

How the results depend on the processing

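The share of named genes well above background was 69.7% as reported. It was 84.1% with the 99th percentile of the negative controls as the limit, 56.1% with a signal of at least 50, 69.1% with the median probe, and 63.9% when all probes of a gene, or its lowest probe (an alternative chosen after seeing the data), had to pass. The pluripotency transcription factors counted 16 as reported and 10 with a signal of at least 50, where fewer genes pass by construction. That rule moved 15 of the list counts by over 1.5 times, and the negative control rule moved 9. Ranks of genes hardly moved with normexp correction (Spearman 0.9986 over 14403 genes) or with the authors' table (0.999999). They moved more with the median probe (0.976) and the lowest probe (0.848), where 21 of the 30 brightest genes stayed in the brightest 10%. No paired analysis was possible because each group has 1 array, and for the same reason no replicate could be left out. Calls of genes with a signal under 50 depend on the limit set for the signal over background.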

Other observations

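Some genes of specialised tissues had a bright probe on the wildtype array, and these were picked after their values were seen. Slc10a1, the bile acid importer of hepatocytes, had a signal of 87599 from 1 probe and 3.17 from the other. Krtap10-10, a hair keratin-associated protein, had 9349, and the vomeronasal receptor Vmn2r55 had 8516 from 1 probe and 10.3 from the other. Tas2r113, a bitter taste receptor, had 2941 from its only probe. Pcdhga9, a clustered protocadherin, had 6526 and a second probe at 93.8.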
